A study of Mus musculus with 9 samples.

Results

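The genes described here encode the protein machinery of oxidative phosphorylation, and their mRNA was measured in blood stem and progenitor cells cultured with or without a Notch ligand. They were chosen by symbol in the platform's probe annotation, taking every gene whose name starts with Nduf, Sdh followed by a to d, Uqcr, Cox followed by 4 to 8, or Atp5. This gave 94 genes of the 18193 genes tested. By complex they were 6 core and 28 accessory subunits of complex I, 8 complex I assembly factors, 4 subunits and 4 assembly factors of complex II, 8 genes of complex III, 19 of complex IV and 17 of complex V. Ndufa4 and its relative Ndufa4l2 were placed with complex IV, where the Ndufa4 protein is now known to belong, and the 4 Sdhaf genes were taken in because their names fit the same spelling. Each gene was represented by 1 probe set, the one with the highest mean over all arrays.

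LSK cells, a bone marrow fraction without lineage markers and with Sca-1 and c-Kit that is rich in blood stem cells, were sorted from wild-type C57/Bl6 mice of unstated age and kept for 3 days on a layer of OP9 stromal cells. All 3 groups shared that source, that time and a feeder of the OP9 line. One group grew on OP9-GFP, the control feeder, a second on OP9-DL1, which carries the Notch ligand Delta-like 1, and the third on OP9-DL1 with 1 µM Compound E, an inhibitor of gamma-secretase, the protease that releases the active part of Notch (called OP9-DL1+CompoundE). Each group had 3 arrays, and the labels do not say whether these came from separate sorts, so the p-values measure the spread between arrays, which may be technical. The cells taken for RNA were those not attached to the feeder, and no vehicle for the control cultures is named.

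Oxidative phosphorylation takes place at the inner mitochondrial membrane. Complexes I and II pass electrons from NADH and succinate to ubiquinone, complex III hands them to cytochrome c and complex IV to oxygen, while complexes I, III and IV pump protons whose return flow drives ATP synthase, complex V. Nearly all of the subunits are made from nuclear genes and a small set from mitochondrial DNA. Complexes I, III, IV and V are built from both, and complex II from nuclear genes alone. Assembly factors, which are not part of the finished enzyme, help to build them. Resting blood stem cells are known to rely largely on glycolysis, and mitochondrial respiration rises as they are committed to mature lineages.

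Of the 94 genes, 92 were above the highest of 27 control probe sets for bacterial transcripts (3.64 on the log2 scale) in at least 1 group, and 76 had a mean above 9. The exceptions were Cox7b2, a testis form of a complex IV subunit, and the only probe set specific to Ndufb4. Replicate arrays lay close together for these genes, with a median SD of 0.04, 0.06 and 0.07 in the OP9-GFP, OP9-DL1 and OP9-DL1+CompoundE groups, against 0.09, 0.09 and 0.12 over all genes. In 14 of the 94 genes (14.9%), as in 21.9% of all genes, at least 2 arrays of a group held exactly the same value, which lowers that spread.

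Notch targets moved with the ligand and the inhibitor: Nrarp, a direct Notch target, was 2.69 higher (log2) on OP9-DL1 than on OP9-GFP and differed by -4.27 on OP9-DL1+CompoundE against OP9-DL1, and 8 of 8 Notch targets were called higher in the first of these comparisons and lower in the second. The make-up of the harvested cells differed as well. The mean level of 12 macrophage markers per array was 10.38 to 10.41 on OP9-GFP, 8.26 to 8.31 on OP9-DL1 and 10.54 to 10.55 with Compound E, with C1qa at background throughout. That of 11 megakaryocyte markers was 9.08 to 9.18, 10.80 to 10.86 and 8.71 to 8.75, and that of 9 erythroid markers 6.17 to 6.21, 7.07 to 7.14 and 5.65 to 5.74, with the haemoglobin gene Hba-a1 and the haem synthesis gene Alas2 at background. Feeder markers were also present: the mean over 19 stromal genes, none at background, was 9.50 to 9.55, 10.43 to 10.45 and 9.47 to 9.59. Mast cell markers moved further: the mean over 8 of them, none at background, was 6.13 to 6.21, 8.39 to 8.41 and 5.15 to 5.29, with the granule protease gene Gzmb 5.40 higher on OP9-DL1 than on OP9-GFP and at -6.66 with Compound E against OP9-DL1. Of the 8 mast cell markers, 7 were called higher and 1 lower between feeders. With Compound E against OP9-DL1, 7 were called lower and none higher. Granulocyte markers moved in both directions, with 4 of 8 called higher and 4 lower between feeders and 3 higher and 4 lower with Compound E, and array means of 10.30 to 10.41, 11.12 to 11.22 and 10.91 to 10.97. Of 6 early blood markers 2 were higher and 3 lower between feeders (median -0.25), and 3 were higher and 2 lower with Compound E against OP9-DL1 (median 0.05). Kit differed by 1.28 and -2.08 in these comparisons, and Flt3 and Spi1 ran opposite to it, with -1.51 and 1.05 for Flt3 and -0.92 and 1.38 for Spi1, while Cd34 differed by -0.35 and -0.10, the second not called. The part of these markers in the results below was not tested, and in RNA from a mixed culture fewer cells of a type and less RNA per cell cannot be told apart.

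To show the regulatory sequence next to the data, the 250 bases before the annotated start of 3 members are printed, taken from RefSeq's annotation of GRCm38.p6: Sdhb, the subunit gene with the largest fall outside complexes I and IV; Ndufaf7, an assembly factor that moved the same way; and Cox6b2, which moved the other way. Capitals mark a match to the core of the NRF1 site, GCGCATG, read here on the opposite strand.
Sdhb, chr4:140961021-140961270, plus strand: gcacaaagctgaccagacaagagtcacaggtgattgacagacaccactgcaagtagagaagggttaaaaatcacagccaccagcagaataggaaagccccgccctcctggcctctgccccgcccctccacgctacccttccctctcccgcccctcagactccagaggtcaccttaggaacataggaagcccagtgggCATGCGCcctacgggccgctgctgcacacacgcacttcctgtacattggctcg
Ndufaf7, chr17:78936885-78937134, plus strand: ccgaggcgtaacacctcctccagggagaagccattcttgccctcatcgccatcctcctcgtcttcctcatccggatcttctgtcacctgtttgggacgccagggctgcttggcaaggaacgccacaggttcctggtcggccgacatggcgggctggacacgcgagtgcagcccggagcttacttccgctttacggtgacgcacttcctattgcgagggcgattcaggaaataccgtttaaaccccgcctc
Cox6b2, chr7:4753095-4753344, minus strand: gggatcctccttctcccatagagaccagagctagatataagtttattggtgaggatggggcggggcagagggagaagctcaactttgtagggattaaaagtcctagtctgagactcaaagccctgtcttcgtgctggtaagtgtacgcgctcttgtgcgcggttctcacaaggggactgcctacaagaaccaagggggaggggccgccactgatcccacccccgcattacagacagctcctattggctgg

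NRF1 and the GABP complex are transcription factors known to bind promoters of many respiratory chain genes. Their core letters, and those of YY1 and of the Myc E-box, were searched on both strands in windows of 300 bases, from 250 before to 50 after the start, for the 78 of 94 members and the 14452 tested genes that had a window. No motif searched contains another. The NRF1 core GCGCATG was found in 14 members (17.9%) and in 6.3% of tested genes. The GABP/ETS core CCGGAAG was in 22 members (28.2%) and in 2165 of the 14452 tested genes (15.0%). The YY1 core AAGATGG was in 11 members (14.1%) and in 7.54% of tested genes, while the E-box CACGTG was in 6 members (7.69%) and in 10.2%. Median GC content was 58.8% for the members and 58.7% for the tested genes. The Sdhb window held the NRF1 match, which begins 53 bases before the start, and a GABP/ETS match that begins 6 bases after it. The windows of Ndufaf7 and Cox6b2 held none of the 4 motifs, which says only that these letters are not there.

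On OP9-DL1 the genes of oxidative phosphorylation stayed near their level on OP9-GFP, with small falls more common than rises. In limma's test with Benjamini-Hochberg adjustment over all genes, 5 members were higher and 23 lower at an adjusted p under 0.05, or 5.32% and 24.5% of the 94, where 15.9% of all genes were called higher and 16.7% lower. The median difference over the members was -0.05 (log2) and that over all genes -0.02. In 87 of the 94 (92.6%) the 95% interval of the difference lay within 0.5 of no change on the log2 scale, against 68.5% of all genes. These genes were brighter than most, with a median level of 11.02 against 6.41 over all genes. Their median SE was 0.05 in each comparison, against 0.10 over all genes. A smaller SE narrows the intervals and lets smaller differences be called, so the shares over all genes are not a like baseline. The 3 OP9-DL1 arrays lay wholly above the OP9-GFP arrays in 7 members and wholly below in 34, where 20.8% and 23.0% of all genes did so.

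The count of falls depended on single arrays: it was 14 without OP9-GFP array 1, 12 without OP9-GFP array 2, and 14 without OP9-DL1 array 1 or array 2. The count of rises was 2 without OP9-GFP array 1 and 3 without OP9-DL1 array 2 or array 3. With each array centred on its own median the split was 2 higher and 31 lower. That of all genes moved the same way, from 2888 higher and 3046 lower to 2483 and 3582. The median deviation of the 94 genes from their 9-array means was 0.02, 0.05 and 0.00 on the OP9-GFP arrays and -0.03, -0.08 and 0.00 on the OP9-DL1 arrays, so the groups overlapped at array 3 of each (-0.0033 for OP9-GFP and 0.0024 for OP9-DL1).

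With Compound E on the same feeder, more of these genes rose than fell. In limma's test 29 members were higher and 12 lower on OP9-DL1+CompoundE than on OP9-DL1, or 30.9% and 12.8%, where 25.1% of all genes were called higher and 21.6% lower. The median difference was 0.06 for the members and 0.08 for all genes. Intervals lay within 0.5 of no change in 83 members (88.3%) and in 54.9% of all genes, and 1 member, Cox6b2, differed by more than 1 on the log2 scale. The arrays of the groups did not overlap in 32 members that were higher and 20 that were lower, where 29.3% and 23.2% of all genes did so. With each array centred on its median the split was 40 higher and 8 lower. That of all genes moved the same way, from 4574 higher and 3926 lower to 5619 and 3397, and their median was then 0.13. This comparison and the one between feeders share the OP9-DL1 arrays, and for that reason their values are set side by side below without a test of how they relate.

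**Figure D1:**
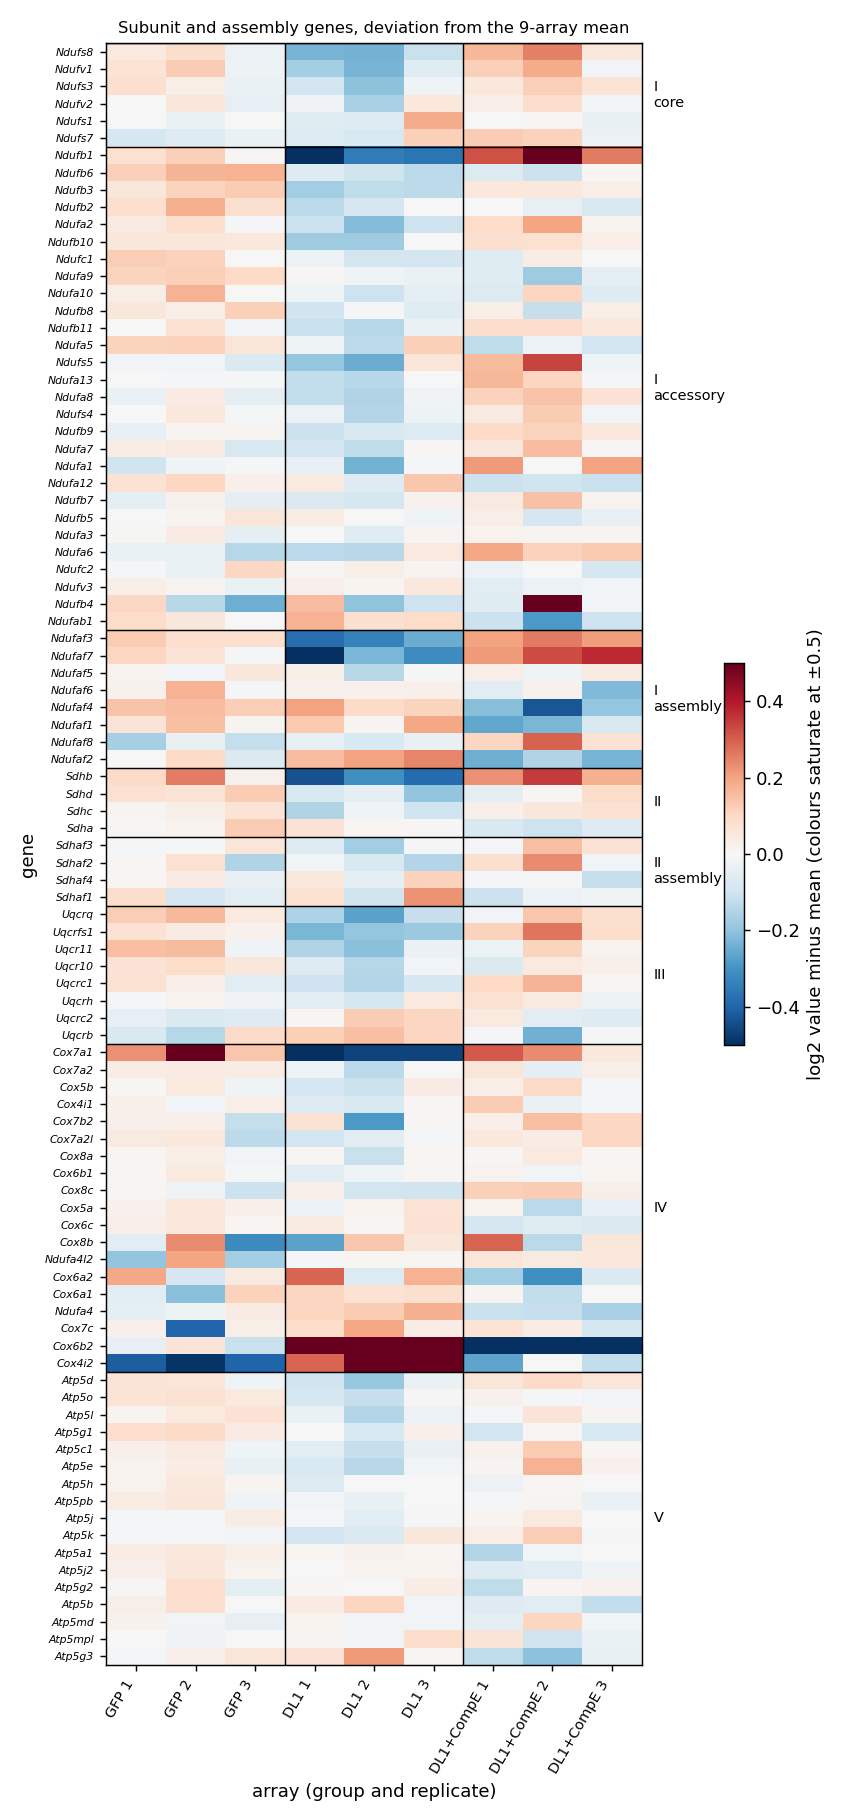
Each row is 1 of the 94 genes, each column 1 of the 9 arrays, and the colour is the log2 value minus that gene's mean over the arrays, grouped by complex, with colours saturating at 0.5. Most rows are pale, and the deepest colours are in complex IV (Cox4i2, Cox6b2, Cox7a1) and in Sdhb, Ndufb1, Ndufaf3 and Ndufaf7.

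Complex I, the entry point for electrons from NADH, held 12 of the 23 falls between the feeders. Of its 34 core and accessory subunits none was called higher and 12 were called lower (35.3%) on OP9-DL1 than on OP9-GFP (limma), where 15.9% of all genes were higher and 16.7% lower, with a median difference of -0.08. Without OP9-GFP array 1 there were 7 falls, without OP9-GFP array 2 there were 5, and without OP9-DL1 array 1 or array 2 there were 6, with no rise in any of these fits. With Compound E, 16 of the 34 were higher (47.1%) and 2 lower (5.88%) than on OP9-DL1 (median 0.12), where 25.1% and 21.6% of all genes were, and the count of rises was 12 to 17 as each array was left out. The 2 falls became 1 without OP9-DL1 array 1 or 3 or without OP9-DL1+CompoundE array 1 or 3.

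Among the core subunits, which carry the flavin and the iron-sulfur clusters, Ndufs8 changed most. Its values were 11.27, 11.31 and 11.19 on OP9-GFP, 10.99, 10.98 and 11.11 on OP9-DL1, and 11.39, 11.47 and 11.27 with Compound E. All 3 OP9-DL1 arrays were below the other 6. The difference between feeders was -0.23 ± 0.06 (SE; limma adjusted p = 0.003803), and that of Compound E against OP9-DL1 was 0.35 ± 0.06 (adjusted p = 6.414e-05). The 5 other probe sets for Ndufs8 moved the same way in both comparisons.

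Ndufv1, which binds NADH and passes its electrons to the flavin, read 10.86, 10.92 and 10.77 on OP9-GFP, 10.63, 10.56 and 10.74 on OP9-DL1, and 10.92, 10.98 and 10.78 with Compound E. It differed by -0.21 ± 0.06 between feeders (limma adjusted p = 0.0142) and by 0.25 ± 0.06 with Compound E against OP9-DL1 (adjusted p = 0.003204). The first of these calls was lost without OP9-GFP array 1 or 2 or OP9-DL1 array 1 or 2, with an adjusted p of up to 0.0809. Ndufs3, another core subunit, differed by -0.14 between feeders (adjusted p = 0.0464), a call lost in 6 of 9 fits that each left out 1 array, OP9-GFP 1 and 2, OP9-DL1 1 and 2 and OP9-DL1+CompoundE 1 and 3, with an adjusted p of up to 0.233. Ndufs1, the large iron-sulfur subunit, read 9.73, 9.76 and 9.73 as group means and was called in no comparison, and neither were Ndufs7 and Ndufv2.

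The accessory subunits surround the core and are needed for its assembly and stability. Ndufb1, a small subunit of the membrane arm, had the largest change among them, with 7.13, 7.18 and 7.06 on OP9-GFP, 6.47, 6.71 and 6.69 on OP9-DL1 and 7.38, 7.58 and 7.32 with Compound E. The 3 groups did not overlap. Its differences were -0.50 ± 0.11 between feeders (SE; limma adjusted p = 0.001226), a 1.42-fold lower level, and 0.80 ± 0.11 with Compound E (adjusted p = 8.805e-06), a 1.74-fold higher level.

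Ndufb6, also of the membrane arm, was lower on OP9-DL1 than on OP9-GFP with or without the inhibitor. It read 10.54, 10.59 and 10.60 on OP9-GFP, 10.36, 10.32 and 10.29 on OP9-DL1 and 10.35, 10.31 and 10.43 with Compound E, so that all 6 OP9-DL1 arrays, with or without the inhibitor, were below the OP9-GFP arrays. The difference was -0.25 ± 0.05 between feeders (limma adjusted p = 0.0006728), 0.04 ± 0.05 for Compound E against OP9-DL1 (adjusted p = 0.504) and -0.21 ± 0.05 for Compound E against OP9-GFP (adjusted p = 0.005685). A second Ndufb6 probe set differed by -0.13, -0.12 and -0.25 in these comparisons, with no overlap of arrays in any. The probe sets thus disagreed for Compound E against OP9-DL1.

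Ndufab1, the mitochondrial acyl carrier protein that serves fatty acid synthesis as well as complex I, was called in both comparisons with Compound E and not between the feeders. Its arrays read 10.62, 10.58 and 10.53 on OP9-GFP, 10.70, 10.60 and 10.61 on OP9-DL1 and 10.42, 10.24 and 10.42 with Compound E, the last group lying below both others. It differed by 0.07 between feeders (limma adjusted p = 0.461) and by -0.28 ± 0.06 with Compound E against OP9-DL1 (adjusted p = 0.0006929). Ndufa12, an accessory subunit near the NADH-binding end, differed by -0.03, -0.14 and -0.17 in the 3 comparisons, the last 2 called, but the -0.14 was lost without OP9-DL1 array 1 or 3 or OP9-DL1+CompoundE array 1 or 3 (adjusted p up to 0.131). Ndufs5 was 0.28 higher with Compound E than on OP9-DL1 (adjusted p = 0.0141), lost without OP9-DL1 array 1 or 2 or OP9-DL1+CompoundE array 2 (adjusted p up to 0.0799). Ndufb11, the accessory subunit gene with the highest probe set signal, differed by -0.12 and 0.17, the first of which was lost without OP9-GFP array 1 or 2 or OP9-DL1 array 1 or 2 (adjusted p up to 0.164).

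The 8 complex I assembly factors moved in both directions. Between feeders 1 was higher and 2 lower, and with Compound E against OP9-DL1 3 were higher and 3 lower (limma). These are 12.5% and 25.0%, against 15.9% and 16.7% of all genes, and 37.5% for each direction, against 25.1% and 21.6%, so that with 8 genes each share rests on 1 to 3 calls. Ndufaf7, a methyltransferase that modifies a core subunit during assembly, read 9.30, 9.26 and 9.18 on OP9-GFP, 8.66, 8.97 and 8.88 on OP9-DL1 and 9.41, 9.52 and 9.57 with Compound E. The groups did not overlap, and the differences were -0.41 ± 0.08 (SE; limma adjusted p = 0.0004753) and 0.66 ± 0.08 (adjusted p = 2.348e-06).

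Ndufaf3, which joins an early intermediate of complex I, read 8.77, 8.72 and 8.72 on OP9-GFP, 8.26, 8.30 and 8.39 on OP9-DL1 and 8.84, 8.90 and 8.85 with Compound E, again without overlap. Its differences were -0.42 ± 0.07 (limma adjusted p = 7.394e-05) and 0.55 ± 0.07 (adjusted p = 3.117e-06). Ndufaf4, the protein known to work together with Ndufaf3, read 9.27, 9.28 and 9.25 on OP9-GFP, 9.33, 9.22 and 9.24 on OP9-DL1 and 8.70 to 8.93 with Compound E. The feeders overlapped for Ndufaf4 (difference 0.00, adjusted p = 0.976) and the Compound E arrays were below both, by -0.41 ± 0.07 against OP9-DL1 (adjusted p = 0.0001141). The second Ndufaf4 probe set differed by -0.02 and -0.31 in these comparisons.

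Ndufaf2, a late-acting factor related in sequence to Ndufa12, read 9.76, 9.86 and 9.69 on OP9-GFP, 9.92, 9.96 and 10.01 on OP9-DL1 and 9.52, 9.61 and 9.53 with Compound E. The Compound E arrays lay below all others, by -0.41 ± 0.06 against OP9-DL1 (limma adjusted p = 2.471e-05). The rise between feeders, 0.19 ± 0.06 (adjusted p = 0.020), was lost without OP9-GFP array 1 or 3 or OP9-DL1 array 2 or 3 (adjusted p up to 0.0895) and with arrays centred on their medians. Ndufaf1 differed by -0.30 with Compound E against OP9-DL1 (adjusted p = 0.005358), and Ndufaf8 by 0.21 (adjusted p = 0.0148), a call lost without OP9-DL1 array 2 or OP9-DL1+CompoundE array 2 (adjusted p up to 0.0713). Ndufaf5 and Ndufaf6 were called in no comparison.

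**Figure D2:**
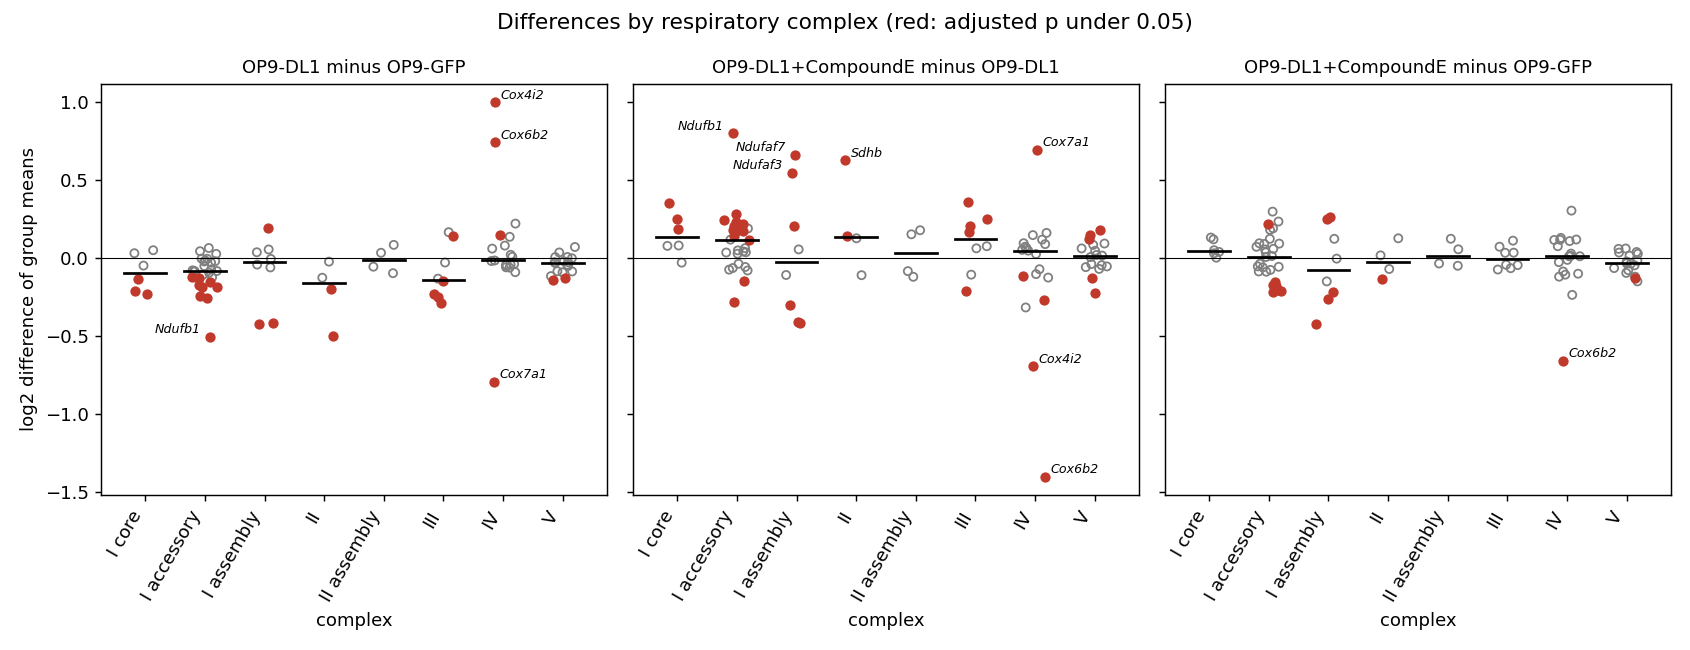
Each point is 1 gene, placed by complex along the x axis and by its log2 difference of group means on the y axis, for the 3 comparisons; red points have an adjusted p under 0.05 and black bars are medians. Most points lie within 0.5 of zero, with Cox4i2, Cox6b2, Cox7a1 and Ndufb1 outside that range in the comparison of feeders and Cox6b2 alone in that of OP9-DL1+CompoundE with OP9-GFP.

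Complex II is succinate dehydrogenase, which is also an enzyme of the citrate cycle and has no subunit encoded in mitochondrial DNA. Its iron-sulfur subunit gene Sdhb changed most. Sdhb read 10.67, 10.83 and 10.60 on OP9-GFP, 10.14, 10.27 and 10.19 on OP9-DL1 and 10.80, 10.93 and 10.75 with Compound E, and all OP9-DL1 arrays lay below the other 6. The difference was -0.50 ± 0.06 between feeders (SE; limma adjusted p = 1.019e-05), 1.41-fold lower, and 0.63 ± 0.06 with Compound E against OP9-DL1 (adjusted p = 5.171e-07), 1.54-fold higher. Sdhb had a single probe set, so no second one could be compared. The same holds for Ndufb1, Ndufaf2, Ndufaf3, Ndufaf7, Uqcrfs1, Cox6b2, Cox4i2, Cox7a1 and Ndufa4.

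The membrane anchors Sdhc and Sdhd, which hold the ubiquinone site together with Sdhb, differed less. Sdhd read 10.96, 10.96 and 11.01 on OP9-GFP, 10.81, 10.84 and 10.69 on OP9-DL1 and 10.84, 10.90 and 10.98 with Compound E. It differed by -0.20 ± 0.05 between feeders (limma adjusted p = 0.007555), while the difference of 0.13 with Compound E missed the threshold (adjusted p = 0.0578). A second Sdhd probe set, with a mean of 10.20, differed by -0.10 and -0.07, the latter opposite in sign. Its arrays overlapped in both comparisons. Sdhc differed by -0.13 between feeders (adjusted p = 0.0633) and was 0.14 higher with Compound E (adjusted p = 0.0250), a call lost without OP9-DL1 array 1 or 3 or OP9-DL1+CompoundE array 3 (adjusted p up to 0.120).

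Sdha, the flavoprotein that binds succinate, differed by -0.02 between feeders and by -0.11 with Compound E against OP9-DL1 (limma adjusted p = 0.779 and 0.0526). A second Sdha probe set, with a mean of 11.31, differed by -0.04 and -0.02, with overlap of arrays in both comparisons. A dimmer one, with a mean of 5.82, differed by -0.41 without overlap and by -0.05 with overlap. The last, with a mean of 3.27 and below the control level of 3.64, differed by -0.07 and 0.09. The assembly factors Sdhaf1, Sdhaf2, Sdhaf3 and Sdhaf4, which fit the flavin or the iron-sulfur clusters into the subunits, differed by 0.09, -0.05, -0.10 and 0.03 between feeders and by -0.12, 0.18, 0.15 and -0.08 with Compound E, none of them called.

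Complex III passes electrons from ubiquinol to cytochrome c. Of its 8 genes, 1 was higher and 4 lower on OP9-DL1 than on OP9-GFP (median -0.14), and 4 were higher and 1 lower with Compound E than on OP9-DL1 (median 0.12; limma). Their shares were 12.5% and 50.0%, where 15.9% and 16.7% of all genes were called, and 50.0% and 12.5%, where 25.1% and 21.6% were. The 4 falls were 2 without OP9-GFP array 1 or 2 or without OP9-DL1 array 2. Uqcrfs1, the Rieske iron-sulfur protein that accepts the first electron, read 10.92, 10.89 and 10.87 on OP9-GFP, 10.62, 10.66 and 10.66 on OP9-DL1 and 10.96, 11.11 and 10.94 with Compound E. The groups did not overlap, with differences of -0.25 ± 0.05 (adjusted p = 0.001078) and 0.36 ± 0.05 (adjusted p = 1.992e-05).

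The small subunit gene Uqcrq differed by -0.29 ± 0.06 and 0.25 ± 0.06 in its brightest probe set (limma adjusted p = 0.00115 and 0.002931), but when all 4 of its probe sets were averaged the differences were -0.10 and 0.17 and neither was called (adjusted p = 0.397 and 0.0904). Of the other probe sets, one with a mean of 4.96 differed by -0.45 and 0.38, one of 3.78, next to the control level of 3.64, by 0.37 and 0.05, and one of 2.84, below it, by -0.05 and 0.02. Uqcrc2, a core protein that faces the matrix, was 0.14 higher on OP9-DL1 than on OP9-GFP (adjusted p = 0.0281), which was lost without any 1 of the OP9-GFP arrays or without OP9-DL1 array 2 or 3 (adjusted p up to 0.115). Uqcrb, a small subunit near the ubiquinone site, differed by 0.17 (adjusted p = 0.0611) and by -0.21 (adjusted p = 0.0136), the second lost without OP9-DL1 array 2 or OP9-DL1+CompoundE array 2 (adjusted p up to 0.0748). Uqcrh, the hinge protein, was called in no comparison, with group means of 12.69, 12.67 and 12.73.

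**Figure D3:**
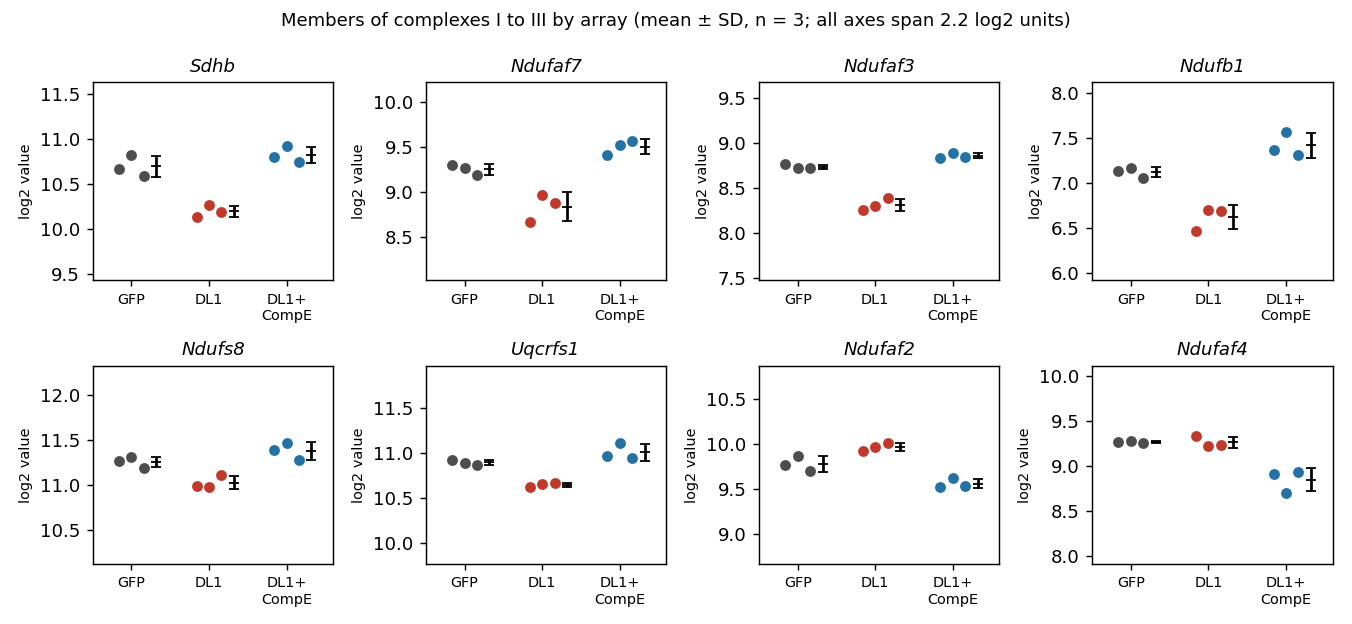
Points are the log2 values of the 9 arrays for 8 genes of complexes I to III by group, with the mean and SD of 3 arrays in black, and every y axis spans the same range. In Sdhb, Ndufaf7, Ndufaf3, Ndufb1, Ndufs8 and Uqcrfs1 the OP9-DL1 arrays are the lowest, while in Ndufaf2 and Ndufaf4 the OP9-DL1+CompoundE arrays are.

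Complex IV, cytochrome c oxidase, exists with alternative forms of several subunits, and the 3 genes with the largest differences there were forms known from particular tissues. Cox6b2, best known as a testis form, read 8.04, 8.14 and 7.97 on OP9-GFP, 8.66, 8.79 and 8.92 on OP9-DL1 and 7.38, 7.52 and 7.28 with Compound E. The groups did not overlap. It was 0.74 ± 0.09 higher on OP9-DL1 than on OP9-GFP (SE; limma adjusted p = 5.022e-06), 1.67-fold, and its difference with Compound E against OP9-DL1 was -1.40 ± 0.09 (adjusted p = 1.654e-09), 2.64-fold lower. Its common partner Cox6b1 differed by -0.04 and 0.03 and was not called.

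Cox4i2, a form found in lung and raised by low oxygen, read 4.18, 4.10 and 4.19 on OP9-GFP, 4.88, 5.14 and 5.43 on OP9-DL1 and 4.33, 4.59 and 4.46 with Compound E. The OP9-DL1 arrays were above all others, by 1.00 ± 0.15 over OP9-GFP (limma adjusted p = 4.908e-05), and Compound E differed from OP9-DL1 by -0.69 ± 0.15 (adjusted p = 0.00107). The common form Cox4i1 had group means of 12.27, 12.21 and 12.28 and was not called.

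Cox7a1, the form of heart and skeletal muscle, went the other way, with 4.70, 4.99 and 4.61 on OP9-GFP, 3.91 to 4.01 on OP9-DL1 and 4.77, 4.70 and 4.52 with Compound E. The OP9-DL1 arrays were the lowest, with a difference of -0.79 ± 0.14 between feeders (limma adjusted p = 0.0002207) and of 0.69 ± 0.14 with Compound E (adjusted p = 0.0005388). Cox4i2 and Cox7a1 are dim on these arrays, close to the control level of 3.64. The common form Cox7a2, the member with the brightest probe set, read 13.22, 13.13 and 13.20 as group means and was not called.

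Other alternative forms did not pass the test. Cox6a2, of heart and muscle, differed by 0.08 and -0.32 (limma adjusted p = 0.733 and 0.0656), and Ndufa4l2, known to be induced by low oxygen, by 0.06 and 0.05. Cox8b differed by 0.02 and 0.10, and Cox8c by -0.02 and 0.15, at means of 3.86 and 3.84, next to the control level of 3.64. Of the partners of these forms, Cox8a differed by -0.04 and 0.05, and the probe sets for Cox6a1 disagreed in sign, with 0.14 and -0.12 in one and -0.10 and 0.09 in the other. Ndufa4, the common relative of Ndufa4l2, read 11.52, 11.55 and 11.61 on OP9-GFP, 11.68, 11.70 and 11.75 on OP9-DL1 and 11.46, 11.45 and 11.41 with Compound E. The OP9-DL1 arrays were the highest for Ndufa4, by 0.15 ± 0.04 between feeders (adjusted p = 0.0104; lost without OP9-GFP array 1, adjusted p = 0.0662) and with -0.27 ± 0.04 for Compound E (adjusted p = 5.269e-05). In all, 3 of the 19 genes of complex IV were higher and 1 lower on OP9-DL1, and 1 was higher and 4 lower with Compound E than on OP9-DL1. The 3 rises (15.8%) and the 4 falls (21.1%) are at the shares of all genes, 15.9% and 21.6%, while the 1 fall and the 1 rise (5.26% each) are below those of 16.7% and 25.1%.

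**Figure D4:**
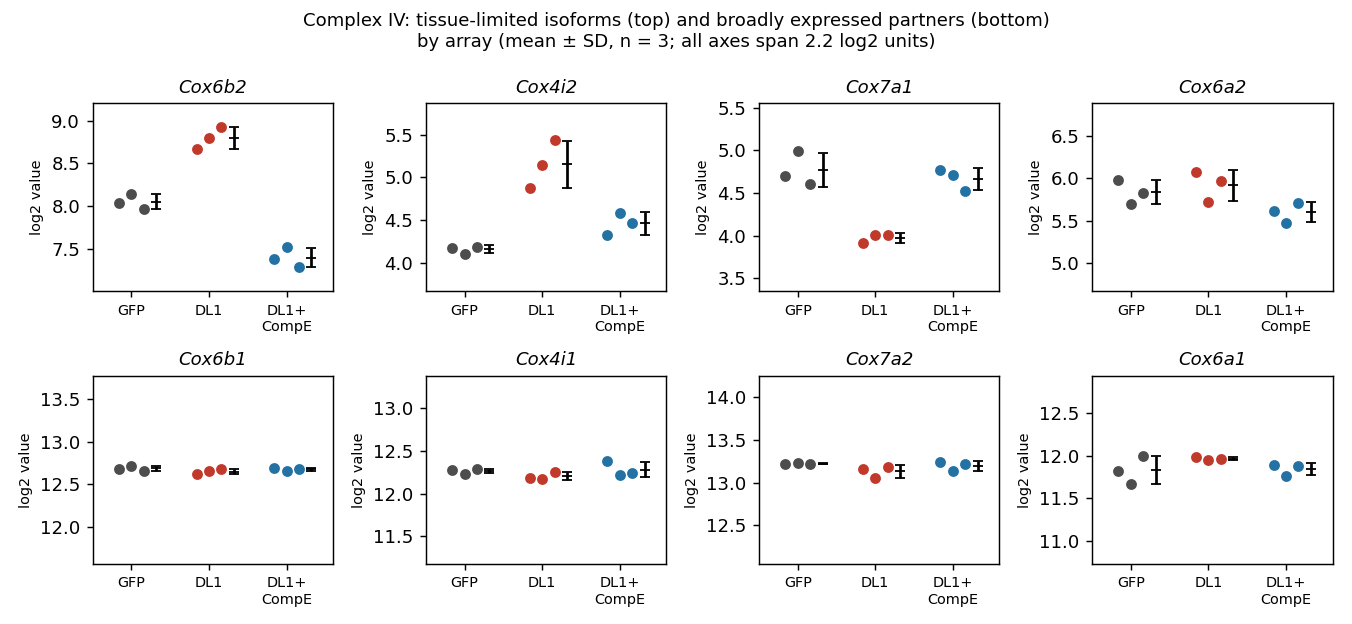
Points are log2 values of the 9 arrays for 4 tissue-limited forms of complex IV subunits (top) and their broadly expressed partners (bottom), with the mean and SD of 3 arrays in black and y axes of equal span. Cox6b2 and Cox4i2 are highest and Cox7a1 lowest on OP9-DL1, while no partner was called in any comparison.

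Complex V, the ATP synthase, varied within narrow limits. Of its 17 genes none was higher and 2 were lower on OP9-DL1 than on OP9-GFP, all within 0.14 of no change on the log2 scale (-0.14 to 0.07). With Compound E against OP9-DL1, 3 were higher and 2 lower (-0.22 to 0.18; limma). Each share of calls was below that of all genes, with 11.8% against 16.7% for the falls between feeders, and 17.6% against 25.1% for the rises and 11.8% against 21.6% for the falls with Compound E. By arrays that did not overlap, 7 genes (41.2%) were lower and none higher between feeders, where 23.0% and 20.8% of all genes were. With Compound E against OP9-DL1, 29.4% were higher and 23.5% lower by that measure, near the 29.3% and 23.2% of all genes. The 2 falls between feeders, Atp5d of the central stalk (-0.14, adjusted p = 0.0214) and Atp5o of the peripheral stalk (-0.13, adjusted p = 0.0229), were both lost without OP9-GFP array 1 or 2 or OP9-DL1 array 1 or 2 (adjusted p up to 0.119 and 0.103).

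Atp5d read 12.25, 12.25 and 12.17 on OP9-GFP, 12.00 to 12.15 on OP9-DL1 and 12.25, 12.28 and 12.25 with Compound E, a difference of 0.18 against OP9-DL1 (limma adjusted p = 0.003078). Atp5g3, 1 of 3 genes that encode the same mature protein of the rotor ring, read 12.88, 12.92 and 12.95, then 12.96, 13.11 and 12.90, then 12.76, 12.69 and 12.86, and its difference with Compound E was -0.22 (adjusted p = 0.002295). The other 2 ring genes, Atp5g1 and Atp5g2, differed by -0.04 and -0.05 in that comparison in their brightest probe sets and were not called. A dimmer Atp5g2 probe set, with a mean of 4.96, differed by -0.52 there, without overlap of arrays. Another, with a mean of 2.855 and below the control level of 3.64, differed by -0.12. The dimmer Atp5g1 probe set, with a mean of 4.11, differed by -0.19, and its arrays overlapped. Calls for the catalytic subunit Atp5b (-0.13, adjusted p = 0.0253) and the small stalk subunit Atp5e (0.15, adjusted p = 0.0243) were lost without OP9-DL1 array 1 or 2, and also without OP9-DL1+CompoundE array 3 for Atp5b and array 2 for Atp5e (adjusted p up to 0.118 and 0.115).

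A further comparison asks how far cultures with the ligand and the inhibitor differ from the control feeder. Between OP9-DL1+CompoundE and OP9-GFP, 3 members were higher and 12 lower (3.19% and 12.8%; limma), where 12.1% of all genes were called higher and 10.6% lower. The median was 0.01 for the members and 0.05 for all genes, and in 88 members (93.6%) the 95% interval lay within 0.5 of no change, against 72.8% of all genes. The arrays did not overlap in 12 members that were higher and 24 that were lower, where 19.8% and 15.0% of all genes did so. The 12 falls were 5 without OP9-GFP array 1 or array 2 and 6 without OP9-DL1+CompoundE array 1, and the 3 rises were 1 without OP9-GFP array 3 and 6 without OP9-DL1+CompoundE array 3. With arrays centred the split was 4 higher and 9 lower, and that of all genes moved from 2208 and 1927 to 2323 and 1781.

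Of the falls against OP9-GFP, 6 were accessory subunits of complex I and 3 were assembly factors. The largest was Cox6b2, with -0.66 ± 0.09 (SE; limma adjusted p = 6.719e-05), followed by Ndufaf4 with -0.42 ± 0.07 (adjusted p = 0.0003896). Ndufaf2 (-0.22, adjusted p = 0.0140; up to 0.0847 without OP9-GFP array 2) and Ndufab1 (-0.21, adjusted p = 0.0124; up to 0.0650 without OP9-GFP array 1) were also lower. Sdha (-0.13, adjusted p = 0.0413) and Atp5g1 (-0.13, adjusted p = 0.0448) were called with all arrays and lost in 7 and 6 of the 9 fits with 1 array left out (adjusted p up to 0.178 and 0.142).

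The 3 rises against OP9-GFP were Ndufaf8 (0.26, limma adjusted p = 0.00745), Ndufaf7 (0.25, adjusted p = 0.0286) and the accessory subunit Ndufa6 (0.22, adjusted p = 0.0199). That of Ndufaf7 was lost without any 1 of the OP9-GFP arrays or without OP9-DL1+CompoundE array 2 or 3 (adjusted p up to 0.0982), and that of Ndufa6 without OP9-GFP array 3 or OP9-DL1+CompoundE array 1 (up to 0.0819). Sdhb, Ndufaf3, Uqcrfs1 and Ndufs8 differed by 0.13, 0.12, 0.11 and 0.12 from OP9-GFP and were not called. In these genes, as in Ndufb1, Ndufaf7, Cox6b2, Cox4i2 and Cox7a1, the calls in the first 2 comparisons held with each array left out in turn. Across the same arrays the macrophage markers were low and the megakaryocyte, erythroid, mast cell and feeder markers high on OP9-DL1, in the ranges given above, and their part was not tested.

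Lists of related genes, which like the members were drawn up with earlier results of these arrays known, give the surroundings. Their counts stand against 15.9% of all genes called higher and 16.7% lower between feeders, and 25.1% and 21.6% with Compound E against OP9-DL1. Among 20 regulators of mitochondrial biogenesis 6 were higher and 2 lower on OP9-DL1 than on OP9-GFP, and 3 were higher and 8 lower with Compound E than on OP9-DL1 (limma), or 30% and 10%, then 15% and 40%. Myc, which drives growth and mitochondrial genes and is also a Notch target, differed by 1.05 and -1.86 (adjusted p = 1.871e-07 and 9.987e-11), and Gabpb1, a subunit of GABP, by 0.54 and -0.81. Tfam, which packages and transcribes mitochondrial DNA, differed by 0.34 and -0.55. Ppargc1a, a coactivator of respiratory genes, read 3.17 on OP9-GFP and 3.11 on OP9-DL1, both below the control level of 3.64, and 5.14 with Compound E. The mitochondrially encoded complex I subunit ND5 read 11.72, 11.80 and 11.80 and was called in no comparison.

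Assembly factors and electron carriers with other names (41 measured, the 4 Sdhaf genes included) were 3 higher and 4 lower between feeders and 8 higher and 9 lower with Compound E. At 7.32% and 9.76%, then 19.5% and 22%, the first 3 shares are below those of all genes and the last is at theirs. Surf1, an assembly factor of complex IV, differed by -0.41 and 0.64 (limma adjusted p = 2.012e-05 and 7.897e-08). Etfb, a carrier of electrons from fatty acid oxidation, differed by 0.13 and -0.38. Of 35 mitochondrial ribosomal proteins 1 was higher and 6 lower, then 8 higher and 6 lower (2.86% and 17.1%, then 22.9% and 17.1%), with Mrpl4 at -0.57 and 0.78. Of 25 import, carrier and uncoupling genes 2 were higher and 2 lower, then 4 higher and 7 lower (8.0% each, then 16% and 28%), with the chaperonin Hspd1 at 0.15 and -0.50.

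Genes that feed or bypass respiration included larger differences. Of 25 citrate cycle and pyruvate dehydrogenase genes 4 were higher and 7 lower between feeders, and 8 higher and 8 lower with Compound E. The shares were 16% and 28%, then 32% for each direction, so the rises between feeders are at the share of all genes. Idh2, the mitochondrial isocitrate dehydrogenase that uses NADP, differed by -0.82 and 1.17 (limma adjusted p = 6.998e-09 and 5.676e-11), and Pdk4, a kinase that turns pyruvate dehydrogenase off, by 1.01 and -0.83. Mpc1, a subunit of the carrier that brings pyruvate into mitochondria, differed by -0.38 and 0.67.

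Of 21 glycolysis genes 6 were higher and 8 lower between feeders, and 10 higher and 7 lower with Compound E. At 28.6% and 38.1%, then 47.6% and 33.3%, these shares are above those of all genes in both directions. The glucose transporter gene Slc2a3 differed by 1.23 and -1.74 (limma adjusted p = 1.398e-12 and 1.609e-14), and the lactate exporter gene Slc16a3 by -1.08 and 2.46. Of 17 low-oxygen response genes 5 were higher and 6 lower, then 6 higher and 6 lower (29.4% and 35.3%, then 35.3% each), with the peptide hormone gene Adm at 2.41 and -1.70 and the oxidase gene Ero1a at -0.47 and 0.53. Of 13 antioxidant genes 2 were higher and 4 lower, then 5 higher and 6 lower (15.4% and 30.8%, then 38.5% and 46.2%), with Hmox1, which breaks down haem, at -0.55 and 1.24 and Nqo1 at 1.41 and -1.45.

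**Figure D5:**
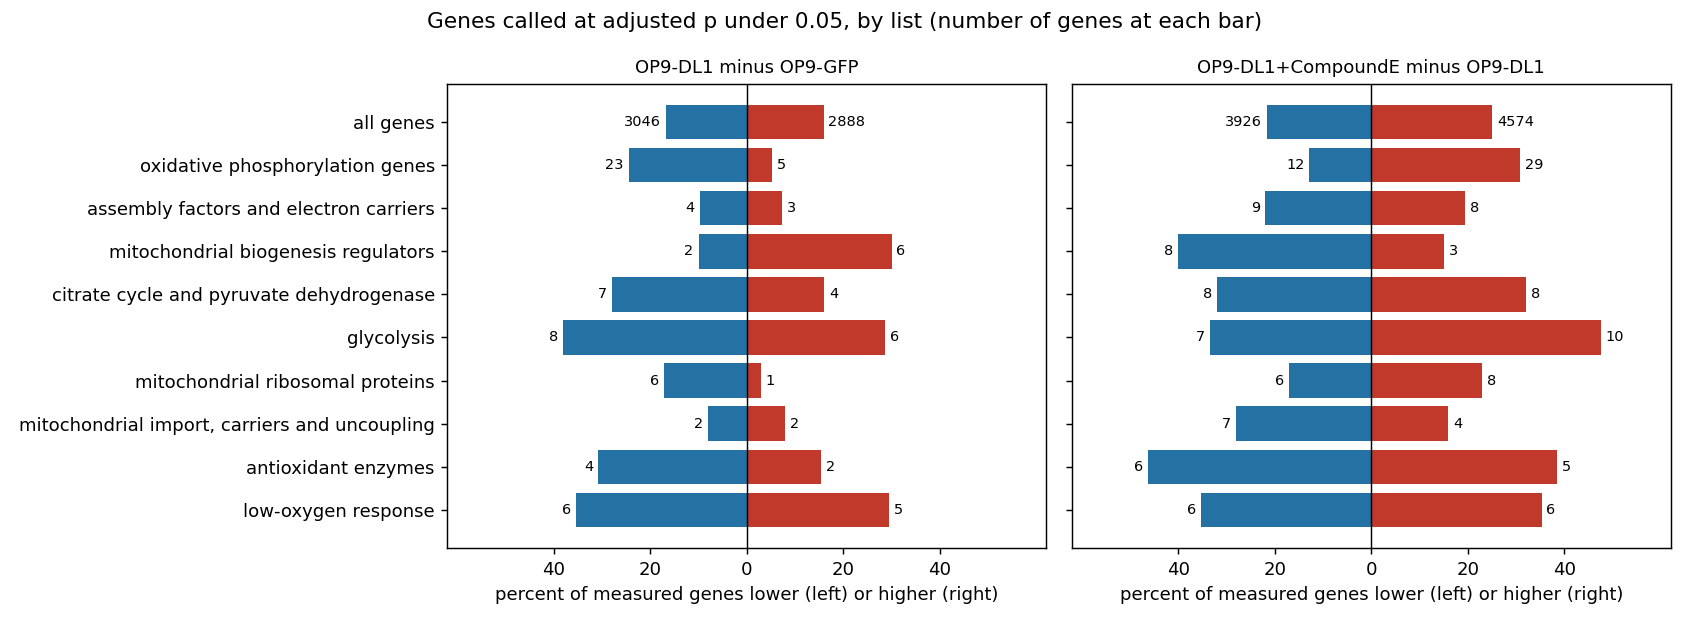
Bars give the percent of measured genes called lower (left, blue) or higher (right, red) at an adjusted p under 0.05 for all genes, the oxidative phosphorylation genes and 8 related lists, in the comparison of feeders and in that of Compound E with OP9-DL1; numbers at the bars are genes. The oxidative phosphorylation genes have 5 higher and 23 lower in the first and 29 higher and 12 lower in the second.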

How the data were processed

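RNA of 9 samples was measured on single-colour arrays, 25 ng of RNA per sample being amplified and biotin-labelled, per the labels' protocols. The deposited table holds log2 values of each probe set on each array. GCRMA 2.4.1 and MAS5 are named, per the submitters' processing notes; which made the values was not given in the sources used here. If the background step compresses dim values, folds of dim genes are understated.

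Groups and replicate numbers came from sample titles. Of 45101 probe sets 34945 had 1 symbol, 932 several, 9160 none and 64 were controls; 34741 symbols were matched by Entrez ID to a RefSeq table (GRCm38.p6). Members had 185 probe sets, and 53 of the 94 had more than 1. Tests used limma 3.58.1 in R 4.3.3 (lmFit and trended eBayes) over the 9 arrays together, without covariate, filter or further normalization, with Benjamini-Hochberg adjustment over 18193 genes and a threshold of 0.05; the fit was tested on simulated data. SD is over the 3 arrays of a group, SE is from the model, and the number of arrays limits the precision.

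Members and lists were chosen with earlier results of these data known, so lists got counts and medians and no set test. Named members were all of complex II, alternative complex IV forms with their partners, per class the 2 largest rises and falls in the first 2 comparisons and the largest of each in the third, and the highest and lowest probe set. From other lists came up to 3 genes with the smallest p. Cd34, Ndufaf1, Ndufaf5, Ndufs7, Ndufv2, Atp5g2, ND5, C1qa, Hba-a1 and Alas2 were added after their values were seen. The background level from 27 bacterial control probe sets was also set after the data were seen. Alternatives were quantile normalization, arrays centred on their medians, a constant of 32 added on the linear scale, the mean of probe sets, no trend, only the 6 arrays compared, filters on brightness, background and equal values, a replicate block, and each array left out.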

Additional observations from a re-analysis of the deposited data

How the results depend on the processing

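Over 52 named members and 3 comparisons, none of the 58 called log2 differences changed sign under any alternative run; 35 of the 98 that were not called did so under at least 1, among them Uqcrq for Compound E against OP9-GFP (-0.04, and 0.07 with its probe sets averaged). Between feeders, the 5 rises were 2 with arrays centred on their medians and 2 without the intensity trend, and 2 to 6 as each array was left out; the 23 falls were 11 without the trend and 12 to 25 as each array was left out. For Compound E against OP9-GFP the 12 falls were 6 without the trend and 5 to 15, and the 3 rises 1 to 6, as each array was left out. For Compound E against OP9-DL1 the counts stayed within 1.5 times of 29 and 12 in every fit run (22 to 31 rises and 10 to 13 falls with 1 array left out). Fits with fewer arrays have less to test with; the cause of the other shifts was not tested.

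Same-numbered arrays did not deviate together (correlations of -0.11 to 0.12, against -0.14 to 0.09 for arrays with different numbers). The labels do not say whether the numbers pair the samples, and with 3 arrays per group these correlations cannot exclude it. With the replicate block the counts were 5 higher and 20 lower, 26 and 12, and 3 and 8. Members called in a comparison with another probe set above background numbered 12, 16 and 9, and in 11, 16 and 9 of them every such probe set had the same sign.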

Other observations

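Probe sets that name several genes were left out of the tests, and 8 genes of the family (Ndufa11, Ndufa11b, Ndufs6, Ndufs6b, Ndufb4b, Ndufb4c, Ndufs5-ps and Ndufab1-ps) were measured by such probe sets alone. The probe set shared by Ndufa11 and Ndufa11b had a mean of 10.08 (log2) and differed by 0.02 between feeders and by 0.14 with Compound E against OP9-DL1. That of Ndufs6 and Ndufs6b had a mean of 10.68 and differed by -0.12 and 0.11. The 2 shared by Ndufb4, Ndufb4b and Ndufb4c had means of 11.43 and 10.35 and differed by -0.18 and 0.12, and by -0.25 and 0.13, whereas the probe set specific to Ndufb4 was at background. That of Ndufab1 and Ndufab1-ps, with a mean of 8.68, differed by 0.05 and -0.29, next to 0.07 and -0.28 in the probe set of Ndufab1 alone. No test was run on these probe sets, and a signal from them cannot be divided between the genes named.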
